A study of Mus musculus with 18 samples.

Results

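This report describes 10 genes of the fat cell in cultured mouse testis: Cfd, Retn, Adipoq, Plin1, Cidec, Car3, Fabp4, Cdo1, Lpl and Ghr. They were found by their NCBI gene numbers among the 22657 genes of the expression table, and all 10 were present. The genes were chosen by their FPKM, which was high in testes of busulfan-treated mice cultured without alginate oligosaccharides (B0). Their levels in that group are therefore given as a description with no test, and tests are given for comparisons between the other groups. The fit takes the spread of each gene from all 18 samples, so the B0 samples still enter the errors and p-values of those tests.

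The samples were testes of ICR mice, 3 samples in each of 6 groups. A0, A10 and A50 came from untreated mice of matched age and were cultured for 48 h with 0, 10 or 50 µg/mL alginate oligosaccharides (AOS), the short sugar chains obtained by breaking down alginate of brown seaweed. B0, BA10 and BA50 came from mice that received busulfan, an alkylating anti-cancer drug that can destroy germ cells of the testis, once at 40 µg per g body weight when 3 weeks old. Their testes were taken 2 weeks later and cultured with the same 3 AOS concentrations, and all 18 samples shared the same medium with serum. The study used 6 testes per treatment and repeated this 3 times, but the sources do not say whether a sample pools several testes, so the p-values measure the spread between these samples, which may be partly technical.

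Fat cells store triglyceride in one large lipid droplet. They coat the droplet with perilipins, let it grow with fusion proteins, take up fatty acids released from circulating lipoproteins, and secrete hormones such as adiponectin, leptin and, in mice, resistin. The program is switched on by the nuclear receptor PPAR gamma together with factors of the C/EBP family. The mature fat cell is not a cell type of the seminiferous tubules, and in mice the epididymis and its fat pad lie against the testis.

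The level of each gene was given as FPKM, which scales the sequenced fragments of a gene to the length of its transcript and to the fragments mapped in the sample, so that levels can be set side by side between genes. Differences between groups are log2 changes on the log2(FPKM + 1) scale, which understates the change of a gene with low values. Of the 22657 genes, 15790 had at least 1 FPKM in at least 3 samples and were tested. All 10 genes passed this filter, but Plin1, Cidec and Car3 passed it through the B0 samples alone. How many reads lay behind each value is unknown. Summed over genes, the samples held 463970 to 511274 FPKM, and Pearson's r across genes between samples of the same group ran from 0.929 to 0.988. The lowest of these came from A10 replicate 3, which stood apart from the other A10 samples.

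The promoters of 4 of the genes with low levels outside B0 are shown, to give the sequence just before the start of genes that were high in the same samples. RefSeq windows were found for 6 of the 10 genes, and Cdo1 was left out of this search. Each line below holds the 250 bases before the annotated start in GRCm38.p6, written 5′ to 3′ on the strand of the gene. They lie at chr10:79890603-79890852 (plus strand) for Cfd, at chr8:3655520-3655769 (plus strand) for Retn, at chr16:23146286-23146535 (plus strand) for Adipoq and at chr6:113435761-113436010 (minus strand) for Cidec. Capitals mark the letters ATTGC or their reverse complement GCAAT, which form one side of the palindrome bound by C/EBP factors.
Cfd: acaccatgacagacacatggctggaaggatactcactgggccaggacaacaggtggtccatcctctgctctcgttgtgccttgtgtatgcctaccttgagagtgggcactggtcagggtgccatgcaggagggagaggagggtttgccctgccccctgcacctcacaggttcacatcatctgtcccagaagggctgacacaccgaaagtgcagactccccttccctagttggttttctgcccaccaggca
Retn: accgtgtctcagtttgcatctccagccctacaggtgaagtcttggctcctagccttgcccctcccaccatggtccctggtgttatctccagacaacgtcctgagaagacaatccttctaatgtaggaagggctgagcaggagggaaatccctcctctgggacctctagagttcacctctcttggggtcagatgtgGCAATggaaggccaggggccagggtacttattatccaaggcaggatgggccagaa
Adipoq: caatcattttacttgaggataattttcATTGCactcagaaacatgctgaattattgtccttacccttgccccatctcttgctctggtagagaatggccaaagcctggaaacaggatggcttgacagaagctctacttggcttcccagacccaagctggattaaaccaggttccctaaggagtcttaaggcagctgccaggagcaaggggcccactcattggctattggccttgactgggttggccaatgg
Cidec: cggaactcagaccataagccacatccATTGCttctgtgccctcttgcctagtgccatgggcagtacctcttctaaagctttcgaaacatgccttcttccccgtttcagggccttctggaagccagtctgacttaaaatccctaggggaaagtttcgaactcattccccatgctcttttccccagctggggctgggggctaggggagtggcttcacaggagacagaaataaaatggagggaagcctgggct
These letters were found in Retn (first base 55 bases before the start), Adipoq (223 bases) and Cidec (224 bases), and not in Cfd. They were found in 4 of the 6 genes with a window, the remaining one being Plin1, whose window runs into another annotated transcript and is not shown, and in 23.1% of all 32851 promoter windows of the same length. The letters AGGTCA, the core read by many nuclear receptors, were found on either strand in 0 of the 8 windows of the 6 genes and in 14.0% of all windows. A match describes the letters only, and an absent match concerns only these windows.

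Cfd encodes complement factor D, also named adipsin, the protease that starts the alternative complement pathway and a major secreted product of mouse fat cells. Cfd was 113.68, 18.21 and 42.54 FPKM in replicates 1, 2 and 3 of B0, against 1.61, 0.31 and 0.22 FPKM in A0. It was 0.04, 0.48 and 0.19 FPKM in A10 and 0.15, 0.24 and 0.04 FPKM in A50. With busulfan and AOS it was 0.22, 6.18 and 3.93 FPKM in BA10 and 0.03, 0.44 and 2.40 FPKM in BA50. All 3 B0 samples were thus above the 15 others, and the mean was 81.5 times that of A0. Outside B0 the 3 highest values were all in busulfan samples with AOS, while the lowest was in one of them too, so BA10 and BA50 each overlapped with the untreated groups.

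Retn encodes resistin, a hormone that mouse fat cells secrete. The B0 samples had 78.07, 8.99 and 15.64 FPKM, and the A0 samples 0.90, 1.05 and 0.99 FPKM. Retn was 0.25, 0.38 and 1.13 FPKM in A10 and 0.79, 0.96 and 0.74 FPKM in A50. The BA10 samples had 0.91, 1.30 and 2.42 FPKM and the BA50 samples 0.40, 1.25 and 1.79 FPKM. B0 lay above every other sample, with a mean 34.9 times that of A0, and the other 5 groups overlapped along the order of their means.

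Adipoq encodes adiponectin, the most familiar of the hormones made by fat cells. It behaved less distinctly, with 19.27, 6.21 and 5.46 FPKM in B0 and 3.34, 2.06 and 2.19 FPKM in A0. In A10 it was 2.51, 3.03 and 4.88 FPKM, and in A50 3.18, 3.06 and 2.82 FPKM. In BA10 it was 4.16, 7.06 and 3.52 FPKM, and in BA50 3.05, 7.13 and 6.24 FPKM. The B0 samples were above all A0 samples, but replicates 2 and 3 lay within the range of BA10 and BA50. The mean of B0 was 4.08 times that of A0 and 1.88 times that of BA50.

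Plin1 encodes perilipin 1, which coats the lipid droplet of the fat cell and controls access of lipases to it. Plin1 was 8.76, 1.21 and 3.27 FPKM in B0, while the 15 other samples lay between 0.20 and 0.80 FPKM with a median of 0.41 FPKM. The A0 samples had 0.31, 0.57 and 0.50 FPKM. Cidec encodes a protein of the droplet surface through which small droplets fuse into the single large one. The B0 samples had 17.25, 2.47 and 3.98 FPKM of Cidec, and the 15 others between 0.02 and 0.60 FPKM, with 0.21, 0.24 and 0.02 FPKM in A0. For both genes no other group was apart from its neighbour in the order of means.

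Car3 encodes carbonic anhydrase 3, an enzyme abundant in the cytoplasm of fat cells and skeletal muscle. Car3 was 83.24, 11.12 and 9.25 FPKM in B0 and 0.53, 0.24 and 0.21 FPKM in A0, and the other samples reached at most 1.06 FPKM, in BA10 replicate 2. The mean of B0 was 106 times that of A0, the widest gap among the 10 genes. Skeletal muscle also expresses Car3, and its defining genes Acta1, the muscle actin, and Ckm, muscle creatine kinase, reached at most 0.21 and 0.18 FPKM in any sample. The 11 muscle genes read summed to between 4.02 and 4.98 FPKM in B0 and between 4.49 and 5.11 FPKM in A0.

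Fabp4 encodes the fatty acid carrier of fat cells, which capillary endothelium and macrophages also make. Unlike the genes above, it was well expressed in every sample. The values were 567.16, 158.61 and 199.98 FPKM in B0 and 65.29, 80.41 and 58.51 FPKM in A0. They were 53.35, 56.35 and 35.93 FPKM in A10 and 57.75, 56.26 and 59.16 FPKM in A50. The BA10 samples had 62.16, 106.35 and 82.48 FPKM and the BA50 samples 96.82, 128.14 and 91.86 FPKM. B0 was again above all others, at 4.53 times the mean of A0, and BA10 and BA50 lay above A10 and A50, each without overlap.

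Lpl encodes lipoprotein lipase, which frees fatty acids from circulating triglyceride and is made by fat cells, muscle and macrophages. Lpl was 62.45, 21.38 and 27.76 FPKM in B0 and 8.51, 15.67 and 10.05 FPKM in A0. It was 7.79, 7.98 and 9.10 FPKM in A10 and 8.98, 11.25 and 9.63 FPKM in A50. In BA10 it was 15.33, 25.44 and 14.80 FPKM and in BA50 31.63, 29.63 and 17.07 FPKM. Lpl was higher in B0 than in all A0 samples, yet B0 replicates 2 and 3 lay below 2 of the BA50 samples, and B0, BA10 and BA50 overlapped.

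Cdo1 encodes cysteine dioxygenase, the enzyme that oxidizes cysteine on the way to taurine, abundant in fat and liver. Cdo1 was 12.84, 19.00 and 9.71 FPKM in B0, 6.33, 5.07 and 4.66 FPKM in A0, and between 3.07 and 6.88 FPKM in the 15 samples outside B0. Cdo1 was the one gene of the 10 whose next highest group mean was that of untreated testes (A0, 5.35 FPKM). Ghr encodes the growth hormone receptor, which is made in liver, fat and many other tissues. Ghr was 22.98, 9.61 and 11.63 FPKM in B0, 5.45, 6.59 and 6.07 FPKM in A0, and between 2.99 and 7.28 FPKM outside B0. For Cdo1 and Ghr the B0 means were 2.59 and 2.44 times those of A0, the smallest ratios of the 10.

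**Figure D1:**
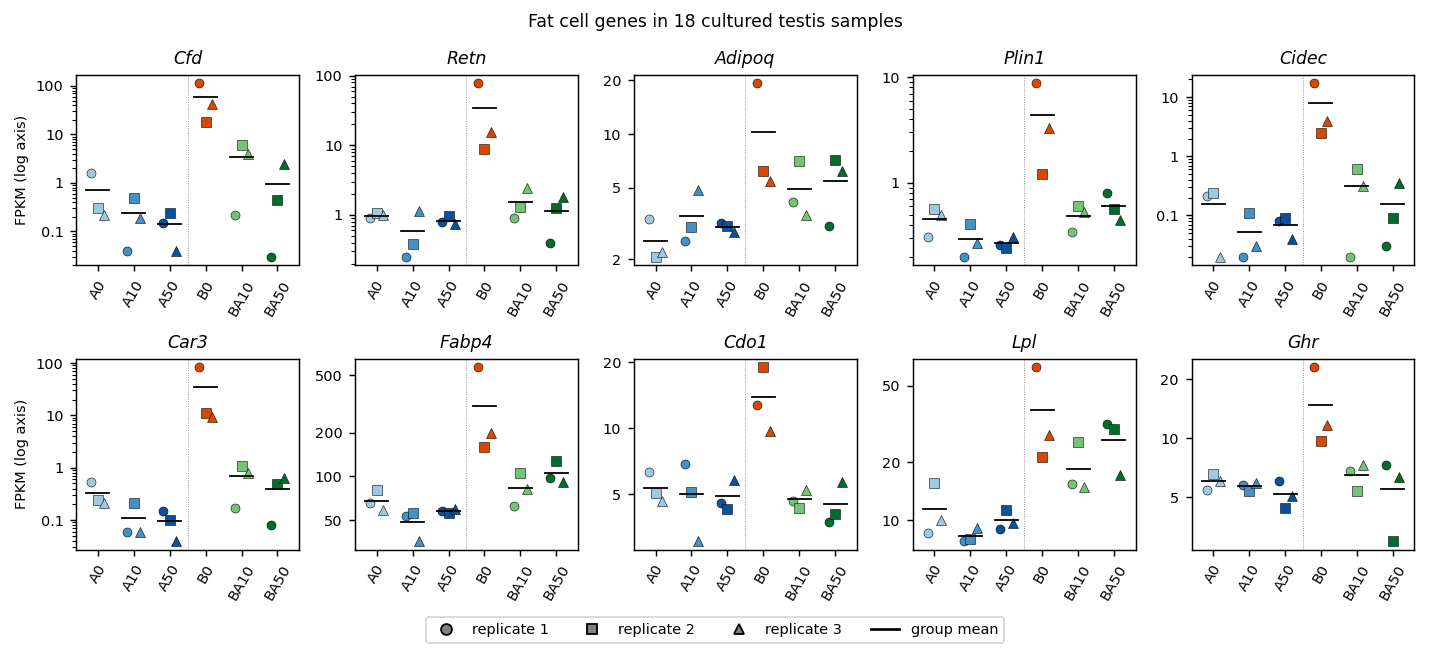
FPKM (log axis) of the 10 genes in the 18 samples, by group along the horizontal axis; points are samples, marked by replicate number, and lines are group means. The B0 samples lie above the 15 others for 8 genes, and overlap with BA10 and BA50 for Adipoq and Lpl.

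Read together, all 10 genes had every B0 sample above every A0 sample, which held for 10.5% of all genes tested, and 8 of the 10 had every B0 sample above the 15 others, which held for 257 genes or 1.63% of those tested. These shares give the background only, since the genes were picked for this pattern. The exceptions were Adipoq and Lpl. The log2 change from A0 to B0 ranged from 1.07 for Ghr (SE 0.28) to 4.83 for Cfd (SE 0.66), with a median of 1.79 over the 10 genes and of -0.04 over all genes tested. Compared to B0, the median was -1.64 in BA10 and -1.45 in BA50, against -0.03 and -0.04 over all genes. Both of these comparisons use the same B0 samples as the first, so they are not separate evidence. The summed FPKM of the 10 genes was 985.7, 256.8 and 329.2 in B0 and between 60.58 and 112.2 in untreated testes. With busulfan and AOS it was between 94.74 and 158.3 in BA10 and between 132.8 and 174.8 in BA50. Fabp4 alone made up 57.5% to 61.8% of this sum in B0.

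The 3 B0 samples were unequal. B0 replicate 1 was the highest of them for 9 of the 10 genes, and 32.1% of all genes tested were highest in that sample. The highest B0 value was between 1.96 times (Cdo1) and 9.0 times (Car3) the lowest. Cdo1 was the exception in order, being highest in B0 replicate 2. Without replicate 1 the log2 change from A0 to B0 was 4.17 for Cfd, 2.70 for Retn, 3.08 for Car3 and 0.72 for Ghr, and the direction was kept for all 10 genes. In bulk tissue, fewer cells of a type and less RNA per cell cannot be told apart, and neither can more cells and more RNA per cell.

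Most markers of simple epithelium were higher as well, in the same B0 samples but in another order. Some of them were expressed in every sample outside B0, such as Epcam at 10.98 to 26.22 FPKM and Cldn4 at 16.59 to 44.17 FPKM. Which tissue they came from was not tested. Of 9 genes of simple epithelium, 7 were higher in B0 than in A0, where 1.47% of all genes tested were called higher (limma, adjusted p under 0.05 over all genes). Krt7, a keratin of simple epithelia, was 10.54, 25.28 and 6.88 FPKM in B0 and between 0.10 and 1.18 FPKM elsewhere (log2 change 3.14, SE 0.38, adjusted p = 4.39e-05). Krt7 passed the filter through the B0 samples alone, so its p-value is a description only. Krt18, a second keratin of these cells, was 25.29, 69.21 and 29.56 FPKM in B0 and 9.61, 3.61 and 2.98 FPKM in A0. Among the B0 samples, all 9 epithelial genes were highest in replicate 2, in which 7 of the 10 fat cell genes were lowest. The share of all genes tested that were highest in that sample was not computed. Without that sample 3 of the 9 epithelial genes were called. The range of their summed FPKM was 114.6 to 282.2 in B0, 55.40 to 85.41 in A0, 62.41 to 76.30 in BA10 and 54.56 to 83.42 in BA50.

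Crisp1, which encodes a secreted protein of the epididymal epithelium, was 1.83, 37.37 and 2.80 FPKM in B0 and at most 0.24 FPKM in the 15 other samples (log2 change from A0 2.84, SE 0.63, adjusted p = 0.00654, limma). Crisp1 passed the filter through the B0 samples alone, so its p-value is a description only. Spink8, which encodes a protease inhibitor of the epididymis, was 4.46, 31.07 and 34.38 FPKM in B0 and 9.80, 3.30 and 2.86 FPKM in A0, and was not called (1.70, SE 0.72, adjusted p = 0.147). It was 14.16, 20.10 and 3.8 FPKM in BA10, so that BA10 and B0 overlapped. Among the other epididymal genes, Lcn5 was listed at 0 in 17 of the 18 samples and Gpx5 reached at most 0.46 FPKM. The summed FPKM of the 9 epididymal genes measured was 7.06 to 70.30 in B0, 3.72 to 11.72 in A0, 4.41 to 21.43 in BA10 and 3.01 to 4.78 in BA50. Of the mesothelial genes, 1 of 4 tested was called higher in B0, namely Krt19, which simple epithelia also make, and their sum was 15.48 to 29.05 FPKM in B0 against 2.74 to 12 in A0. Msln was 6.56, 2.44 and 3.65 FPKM and Upk1b 4.76, 1.10 and 2.45 FPKM in B0. Both were highest in replicate 1 and lowest in replicate 2, and neither was called. Among the B0 samples Krt19 was highest in replicate 2 and Gpm6a in replicate 3. The part of these tissues in the levels of the 10 genes was not tested.

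Other cell types that make some of the 10 genes were also read. For 10 genes of endothelial cells, which make Fabp4, limma called 0 higher in B0 than in A0, while 6 had an unadjusted p under 0.05 and a positive log2 change, and the sum was 161.8 to 188.2 FPKM in B0, 104.0 to 140.2 in A0, 84.25 to 145.0 in BA10 and 58.43 to 141.6 in BA50. For 10 macrophage genes, limma called 0 and 0 had an unadjusted p under 0.05, and their sum of 609.6 to 1019 FPKM in B0 overlapped with 672.4 to 927.8 in A0. Ucp1, the uncoupling protein that defines brown fat, reached at most 0.14 FPKM in any sample. All 6 spermatocyte genes, such as Sycp3 of the meiotic chromosome axis, were lower in B0, and their sum fell from between 204.8 and 233.7 FPKM in A0 to between 20.82 and 34.91 in B0. Their sum was 27.66 to 45.13 FPKM in BA10 and 20.67 to 41.63 in BA50.

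**Figure D2:**
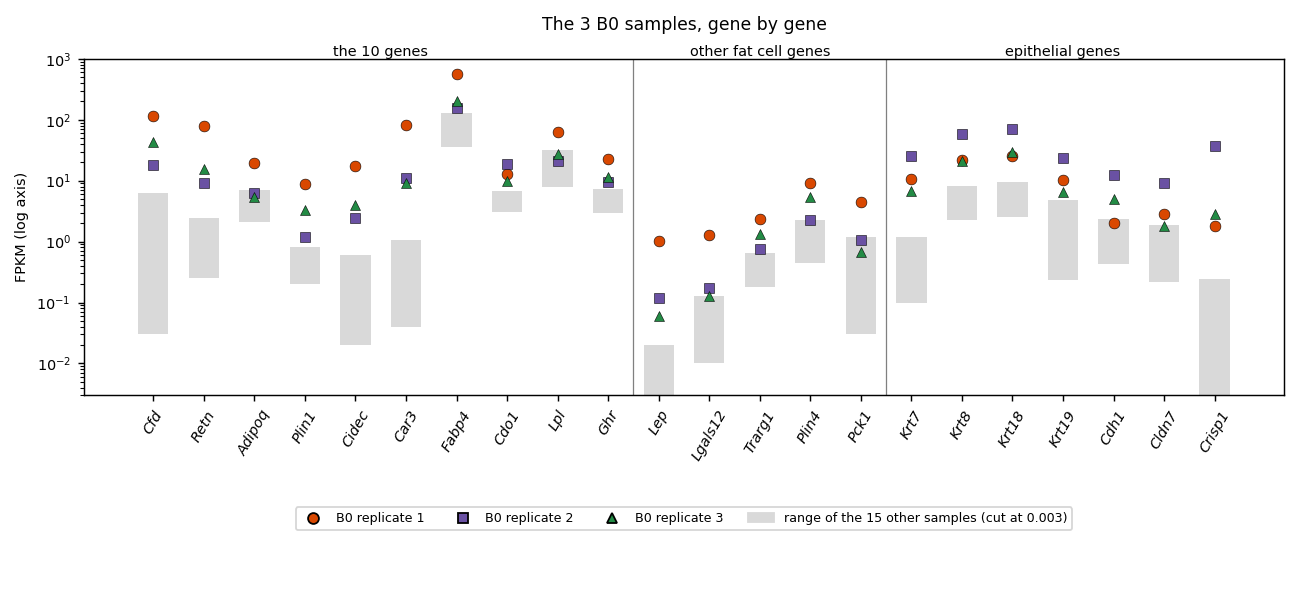
FPKM (log axis) of the 3 B0 samples for the 10 genes, for other fat cell genes and for epithelial genes; grey bars span the 15 other samples and are cut at 0.003 FPKM. Replicate 1 is the highest point for 9 of the 10 genes and for the other fat cell genes shown, and replicate 2 for Cdo1 and the epithelial genes.

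To see whether the label of the group holds for fat cell genes that were not picked for this pattern, 50 further genes of the fat cell were read, of which 43 were tested. These lists were written with the values of the 10 genes in B0 known. Of the 43, 5 were called higher and 2 lower in B0 than in A0, where 1.47% of all genes tested were called higher and 12.3% lower. The median log2 change of the 43 was 0.17. In BA10 and in BA50 compared to B0, limma called 0 of the 43 genes, with 8 and 15 at an unadjusted p under 0.05, where 0.0253% and 0.095% of all genes tested were called. In 32 of the 50 genes measured, B0 replicate 1 was the highest B0 sample.

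Among the droplet and lipolysis genes, Plin4, a perilipin abundant in white fat, was 9.06, 2.30 and 5.41 FPKM in B0, with at most 2.22 FPKM in the 15 other samples (log2 change from A0 1.23, SE 0.35, adjusted p = 0.0266, limma). Plin2, the perilipin that most cells use to coat small droplets, was 219.22, 230.06 and 210.46 FPKM in B0 (0.61, SE 0.11, adjusted p = 0.00189). Plin2 reached 223.36 FPKM outside B0, so that B0 was not apart from the rest. Cidea, a relative of Cidec found mainly in brown fat, was lower in B0 (-1.13, SE 0.30, adjusted p = 0.0197). None of the other 8 droplet and lipolysis genes tested was called.

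Of the genes of fatty acid synthesis and uptake, Scd1, the desaturase that makes monounsaturated fatty acids, was higher in B0 at 136.89, 63.27 and 88.94 FPKM (1.53, SE 0.42, adjusted p = 0.0227), and it reached 124.38 FPKM outside B0. Pck1, the enzyme that supplies glycerol for triglyceride in fat cells, was also higher (1.20, SE 0.35, adjusted p = 0.0345, limma). It was 4.5, 1.06 and 0.67 FPKM in B0 and between 0.03 and 1.21 FPKM outside B0. Only B0 replicate 1 was thus above the 15 other samples. With levels this close to the filter of 1 FPKM, the p-value of Pck1 is a description only. Fasn, the fatty acid synthase, was lower (-0.47, SE 0.14, adjusted p = 0.0427). Among the regulators Cebpa, a C/EBP factor that maintains the fat cell state, was higher (0.58, SE 0.18, adjusted p = 0.0472), while Pparg, the gene of PPAR gamma, was not called (0.34, SE 0.25).

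These 7 calls were sensitive to single samples. Without B0 replicate 1, 2 genes were called, namely Plin2, which was higher, and Dgat1, which was lower and is not among the 7. Plin4, Scd1, Pck1, Cebpa, Cidea and Fasn were thus not called in that fit. Without A0 replicate 1 Plin2 alone was called. Plin2 was called in all 13 alternative fits of this comparison that used the same threshold.

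Several genes nearly confined to white fat were too low to be tested and are named here because of their values. Lep, the gene of leptin, was 1.02, 0.12 and 0.06 FPKM in B0 and at most 0.02 FPKM in the 15 other samples. Lgals12, a galectin of the fat cell droplet, was 1.27, 0.17 and 0.13 FPKM in B0 and at most 0.13 FPKM elsewhere. Trarg1, a regulator of glucose transporter traffic in fat cells, was 2.38, 0.76 and 1.34 FPKM and at most 0.64 FPKM elsewhere. In all 3 genes B0 replicate 1 was the highest sample. Adig, a small protein of fat cell differentiation, did not share the pattern, being 9.24, 5.2 and 7.26 FPKM in B0 and between 4.38 and 12.52 FPKM elsewhere. Of the 50 genes, 5 had every B0 sample above the 15 others, namely Lep, Plin4, G0s2, Trarg1 and Sncg. Only Plin4 and G0s2 of these were tested, and the pattern held for 1.63% of all genes tested. Lep, Trarg1 and Sncg were too low to be tested, and no share is given for genes at such levels.

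The genes whose levels were most like the mean log2(FPKM + 1) of the 10 genes over the 18 samples were sought among all genes tested. The 10 closest were Car4 (Pearson's r 0.921), Trf (0.913), Orm1 (0.899), Pck1 (0.881), Plin4 (0.855), Hoxa9 (0.846), H2aw (0.834), Krt7 (0.828), Efna5 (0.820) and Slpi (0.812). These values are a description, since the 3 B0 samples set most of the spread that they share. Trf, the gene of transferrin, was the most abundant of them with 261.49, 123.62 and 167.84 FPKM in B0. The list holds Pck1 and Plin4 of the fat cell lists and Krt7 of the epithelial list, and Krt7, Hoxa9 and Slpi were highest in B0 replicate 2 rather than 1.

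Whether AOS alone changed the 10 genes in untreated testes was asked first among the comparisons between groups other than B0. With limma, 0 of the 10 were called in A10 compared to A0 and 0 in A50 compared to A0, and 0 of the 10 had an unadjusted p under 0.05 in either. Of the 10, 7 pass the filter without the B0 samples. Plin1, Cidec and Car3 do not, and reached at most 0.80, 0.60 and 1.06 FPKM outside B0. A change of theirs could hardly be called at such levels. Over all genes, 0% were called in both comparisons, and 2405 and 2471 genes had an unadjusted p under 0.05. The log2 changes of the 10 genes lay between -0.50 (Cfd, A50, 95% interval -1.91 to 0.92) and 0.32 (Adipoq, A10, 95% interval -0.49 to 1.14). For Cdo1, the gene with the smallest error, the intervals were -0.63 to 0.40 in A10 and -0.62 to 0.41 in A50, so changes within them could not be seen with 3 samples a group.

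For busulfan under AOS, where the log2 change uses neither B0 nor A0, Lpl and Fabp4 were called. The SE and p also rest on the spread within B0 and A0, since all 18 samples share 1 fit. With only the groups compared, the adjusted p of Fabp4 in BA50 compared to A50 was 0.00958 in place of 0.113 (limma). That of Cfd in BA10 compared to A10 was 0.227 in place of 0.124. Lpl was higher in BA10 than in A10 (log2 change 1.03, SE 0.34, adjusted p = 0.0459, limma) and higher in BA50 than in A50 (1.27, SE 0.34, adjusted p = 0.0151), with all 3 busulfan samples above all 3 untreated ones in both cases. Fabp4 and Lpl lay above A10 without overlap in BA10, as 11% of all genes tested did. Plin1, Fabp4 and Lpl lay above A50 in BA50, as 16% did, but Plin1 passed the filter through B0 alone. Lpl was the one gene of the 10 called in each comparison, while 3.74% and 3.7% of all genes tested were called higher. With the replicate number as a block the adjusted p of Lpl in BA10 was 0.0554. Leaving out any single sample took it to between 0.060 and 0.151 in BA10, and in BA50 to 0.0558 without A50 replicate 1, 0.0635 without BA50 replicate 1 and 0.0516 without BA50 replicate 2.

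Cell type markers moved in this contrast too. With both AOS concentrations in one contrast, all 6 spermatocyte genes were lower (median log2 change -2.88), and their sum was 235.3 to 284.1 FPKM in A10 and 267.2 to 286.3 in A50, against the BA10 and BA50 ranges given above. Higher were 4 of 6 spermatid genes, 2 of 7 Sertoli cell genes (Sox9 and Clu), 1 of 7 Leydig cell genes (Star) and 1 of 10 macrophage genes, Cd14 (log2 change 0.49, SE 0.16, adjusted p = 0.0291, limma). In BA10 compared to A10 the median of the 10 macrophage genes was 0.62, with 0 called and 2 at an unadjusted p under 0.05, and in BA50 compared to A50 it was -0.13, with 0 called and 0 at that p. The macrophage sum was 763.7, 404.3 and 321.9 FPKM in A10 and 565.4 to 605.8 FPKM in A50. With busulfan this sum ranged from 593.3 to 902.8 FPKM for BA10 and from 351.0 to 796.1 FPKM for BA50. Of the 10 endothelial genes limma called 0 with both concentrations, with 1 at an unadjusted p under 0.05, and their sum was 86.48 to 104.5 FPKM in A10 and 84.29 to 92.25 in A50. The part of these cell types in the levels of Lpl and Fabp4 was not tested.

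In that contrast 2 of the 10 genes were called higher and 0 lower, against 11.8% and 22% of all genes tested. Both are among the 7 genes that pass the filter without B0. With so few genes a count of 2 is not far from the share of all genes. It is not read as a trait of the 10 as a set. Lpl was higher by a log2 change of 1.15 (SE 0.24, adjusted p = 0.00174, limma), and it was called in all 19 other fits, with log2 changes between 1.03 and 1.28. Fabp4 was higher by 0.81 (SE 0.25, adjusted p = 0.0225), and it was called in 17 of the 19. The exceptions were the fits without A10 replicate 3 (adjusted p = 0.0527) and without BA10 replicate 2 (0.0534).

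Cfd was not called (1.05, SE 0.47, adjusted p = 0.0944), nor was Adipoq (0.51, SE 0.27, adjusted p = 0.156). With a pseudocount of 0.1 the change of Cfd was 2.05 and was again not called (adjusted p = 0.0696). Without BA10 replicate 1, the BA10 sample with the lowest Cfd, the change was 1.44 and was called (adjusted p = 0.0178), and in BA10 compared to A10 it was 2.28 and called as well (adjusted p = 0.0234). The remaining 6 genes had log2 changes between -0.06 for Cdo1 (95% interval -0.43 to 0.30) and 0.45 for Car3 (95% interval -0.38 to 1.27). The busulfan change did not pass the test for a difference between the AOS concentrations in any of the 10 genes: limma called 0 of all genes, and 306 genes had an unadjusted p under 0.05. For Lpl that difference, 50 minus 10 µg/mL, was 0.23 with a 95% interval of -0.79 to 1.26. In BA50 compared to BA10 limma called 0 of the 10 genes, 0 of which had an unadjusted p under 0.05, and 0% of all genes.

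**Figure D3:**
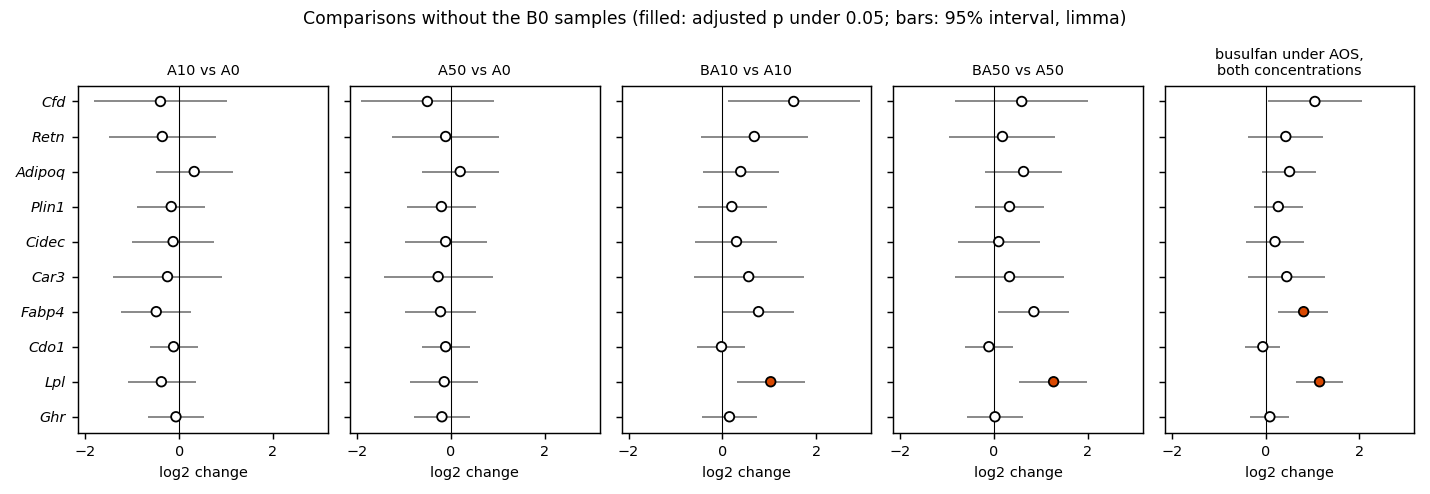
Log2 change of the 10 genes (points, with 95% intervals from limma) in 5 comparisons between groups other than B0. The intervals use the spread within all 6 groups, B0 among them. Filled points have an adjusted p under 0.05. Plin1, Cidec and Car3 passed the filter through B0 alone. Lpl is filled in each comparison of busulfan with untreated testes and Fabp4 where both AOS concentrations form one contrast.

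In the same comparison of busulfan under AOS, 14 of the 43 other fat cell genes tested were called higher and 5 lower. Of all genes tested, 11.8% were called higher and 22% lower. The higher genes were Plin2 (0.52, SE 0.08) and Abhd5 of the droplet list, 8 of 16 synthesis and uptake genes such as Scd1 (0.96, SE 0.30) and Cd36 (0.46, SE 0.14), the regulators Cebpa (0.88, SE 0.13), Cebpb and Srebf1, and Mrap. Mrap is a helper of the adrenocorticotropin receptor in fat and adrenal cells. Plin2 and Mrap were abundant in every sample, at 114.48 to 223.36 and 64.26 to 209.81 FPKM outside B0. Whether these calls came from fat cells was not tested. The lower genes were Mgll, Cidea, Bscl2, Pde3b and Dgat1, whose products act in droplet formation, triglyceride synthesis and lipolysis. Plin4 (0.12, SE 0.25) and Pck1 (0.01, SE 0.25), which were called in B0, were not called here, and whether their change differed between the comparisons was not tested.

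**Figure D4:**
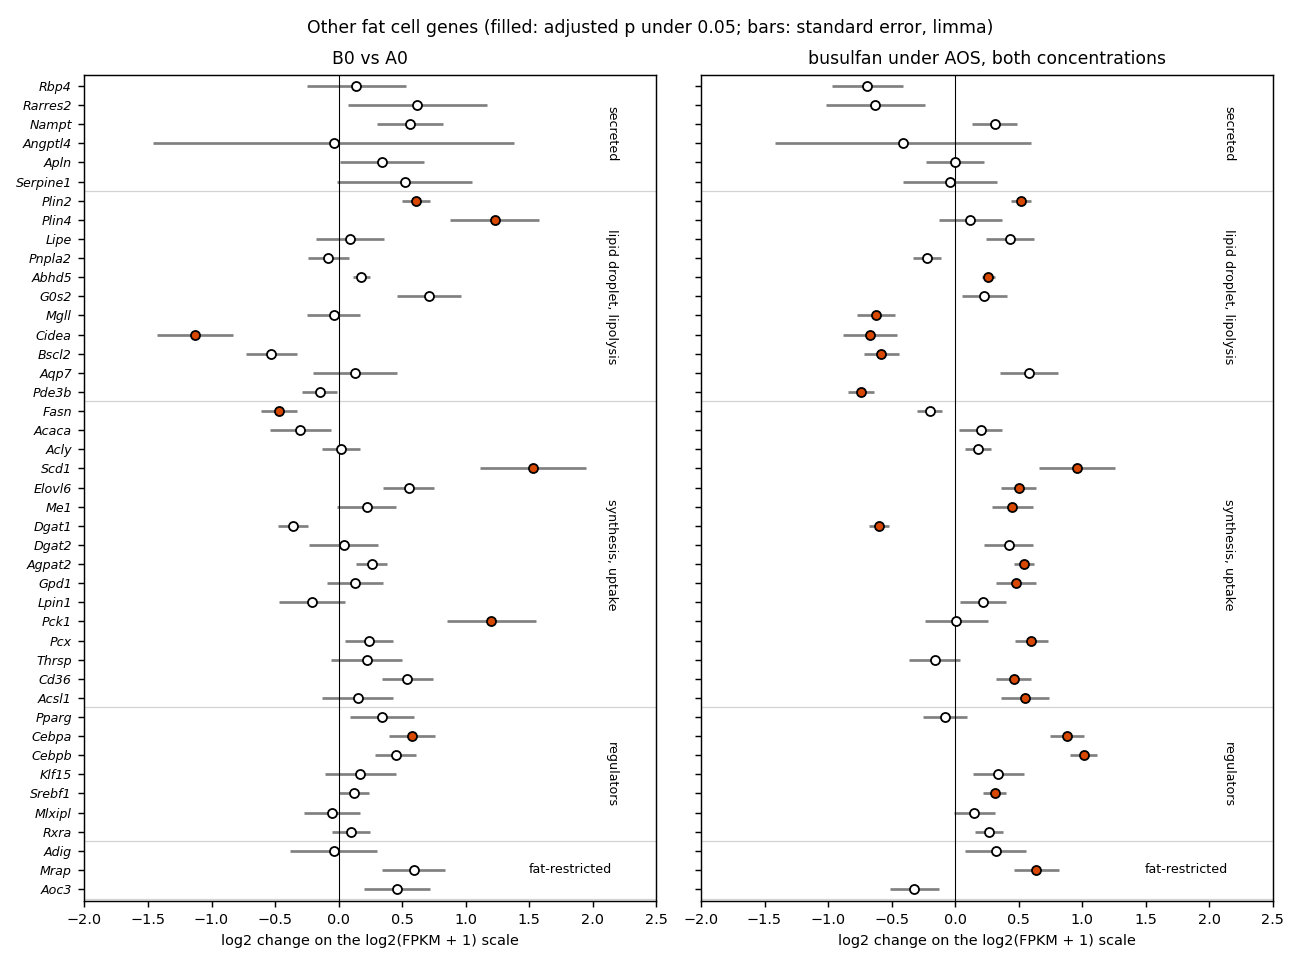
Log2 change with its standard error for the 43 other fat cell genes tested, from A0 to B0 (left) and with busulfan under AOS (right); filled points have an adjusted p under 0.05 (limma). Filled points number 7 on the left, 5 of them higher, and 19 on the right, 14 of them higher. Of all genes tested, 1.47% were called higher and 12.3% lower on the left, and 11.8% and 22% on the right.

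The partners of the 10 genes' products were expressed in every group. Adipor1 and Adipor2, the receptors of adiponectin, were not called in B0 compared to A0 (log2 changes 0.28 and 0.09, unadjusted p = 0.0266 and 0.643, limma). Both were higher with busulfan under AOS (0.38, SE 0.08, adjusted p = 0.00157, and 0.49, SE 0.14, adjusted p = 0.0138, limma). That contrast holds more samples, and whether the changes differed between the comparisons was not tested. Of the 4 genes tested that mature, anchor or activate lipoprotein lipase, 0 were called in B0, with 0 at an unadjusted p under 0.05, and Lmf1 and Apoc2 were lower with busulfan under AOS. For 6 genes acting after the growth hormone receptor, limma called 0 in either comparison, with 1 and 2 at an unadjusted p under 0.05. Of 6 genes of cysteine and taurine handling besides Cdo1, Gclc, a subunit of the enzyme that starts glutathione synthesis, was higher in B0 (0.55, SE 0.17, adjusted p = 0.0374), and 5 were higher with busulfan under AOS. For 7 genes of the complement pathway that factor D opens, limma called 0 in B0, with 1 at an unadjusted p under 0.05. The relatives that could share reads with the 10 genes were also read: of 10 tested, limma called 0 in B0, with 1 at an unadjusted p under 0.05, and 4 were higher with busulfan under AOS, among them Fabp5, which was 47.72 to 145.67 FPKM outside B0.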

How the data were processed

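RNA-seq values of 18 cultured testis samples, 3 in each of 6 groups, were analyzed, with groups and replicate numbers taken from the labels. The authors deposited 1 FPKM value per gene and sample, with 2 decimals. Their processing notes name HISAT, Bowtie2, RSEM and GRCm38.p5 without versions, while the supplementary methods describe poly(A) libraries, SOAPaligner and RPKM, so how the reads were mapped is not settled here. FPKM is relative to all other genes of a sample, and a few genes that rise strongly lower the rest. Read numbers could not be recovered, because 10.0% of 6200 ratios between low values fell within 0.05 of a whole number, where chance gives 10%, and so no counting interval was computed.

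Gene numbers were matched to symbols through RefSeq (GRCm38.p6), and 20656 of 20811 had one. Values were tested as log2(FPKM + 1) in R 4.3.3 with limma 3.58.1 (1 coefficient per group, 18 samples in 1 fit, eBayes with trend) for genes that reached 1 FPKM in 3 or more samples. The Benjamini-Hochberg adjustment ran over all 15790 genes, and a call means an adjusted p under 0.05. The limits of the study (adjusted p at most 0.001 and a log2 change of at least 1), made for a test on reads, were an alternative. The others were a pseudocount of 0.1, the replicate block, a filter at a mean of 5 FPKM or none, a fit to only the groups compared, quantile normalization, no trend, and each replicate left out. The epithelial genes without each B0 replicate were added after seeing the data. The fit was tested on simulated data. Python 3.11.15 and pandas 2.3.3 were used for the rest.

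The 10 genes and the lists were chosen with earlier results of these data known. Named genes are the 10, the fat cell genes called in B0 compared to A0, the 10 most alike by Pearson's r, and of each other list up to 3 abundant genes and those called; Lep, Lgals12, Trarg1, Adig, G0s2, Sncg and genes named for the comparison under AOS were named after their values were seen. The design text of the series gives AOS in mg/kg, whereas the labels and the paper give µg/mL, which is used here. Single-cell, metabolite and microbiota data were not analysed here.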

Additional observations from a re-analysis of the deposited data

How the results depend on the processing

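Of 188 alternative values, 155 were scored as the same. A count of genes called was the same if it was equal or, where both counts were above 0, within 1.5 times the reported one. A median log2 change of the 10 genes was the same if it kept its direction and moved by less than the spread between samples. Direction was scored for these medians only, and none of them turned. For the 10 genes, the count called in BA10 compared to A10 (1) became 0 with the replicate block, without a filter and under the limits of the study, and was 0 to 1 with single replicates left out. In BA50 compared to A50 (1) it was 2 with only the groups compared, 0 under the limits of the study and 0 to 1 with single replicates left out. For both concentrations together (2) it was 0 under the limits of the study and 1 to 3 with single replicates left out. The other fat cell genes called in B0 compared to A0 (7) were 4 with the replicate block, 4 at a mean of at least 5 FPKM, 3 with only the groups compared, 0 under the limits of the study and 1 to 6 with single replicates left out. In BA10 and BA50 compared to B0 (0 each, with 8 and 15 at an unadjusted p under 0.05, limma) the count was 1 without a filter, and 0 to 2 in BA50 with single replicates left out. For both concentrations together (19) it was 1 under the limits of the study. The median log2 change of the 10 genes was 2.72, -2.53 and -2.24 as a ratio of group means, in place of 1.79, -1.64 and -1.45. The causes of these shifts were not tested.

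The replicate numbers did not clearly pair the samples. Correlations of same-numbered deviations ran from -0.43 to 0.17 between B0 and A0, and all 3 were over 0.1 only between BA50 and B0 and between BA50 and BA10, where the block left 0 calls. With 3 samples a group and unknown read numbers, small changes of the genes near 0 FPKM could not be seen.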
